A study of Homo sapiens with 6 samples.

Results

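The levels of 10 long noncoding RNAs with known links to cancer were followed after knockdown of BCL9 in DCIS.COM cells. They were taken by name from the deposited gene table, and 10 of 10 names were found among its 58676 genes. The 10 are MALAT1 and NEAT1, which are found in nuclear bodies, GAS5, SNHG1 and DANCR, whose introns carry small RNAs, H19 and MIR31HG, whose genes hold microRNAs, and PVT1, HOTAIR and TUG1, which have been linked to growth or gene silencing. The 10 names stand on 11 rows, because a short annotation of 95 bases also bears the name MALAT1, and this row was listed at 0 in all 6 samples and not tested. DCIS.COM is an established human line of basal type, from the MCF10A lineage, that models ductal carcinoma in situ. The NS control cells were transduced with a PLKO.1 lentiviral vector that carries a non-silencing shRNA, and the BCL9 KD cells with the same vector carrying a single shRNA against BCL9. Each group has 3 samples, each a flask of cells grown in the same medium with horse serum, and per the study's methods the transduced cells were kept in puromycin. BCL9 is a coactivator of β-catenin, and the comparison was made to find the genes whose RNA differs when BCL9 is low. In bulk RNA of this kind, a change in the number of cells that make an RNA cannot be told apart from a change of the RNA within each cell.

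A long noncoding RNA is a transcript made, in most cases, by the same polymerase as messenger RNA but not coding for a protein, and it can act as a scaffold, as a decoy or through the act of its own transcription. MALAT1 collects in nuclear speckles, the stores of splicing factors, and NEAT1 is the backbone of paraspeckles, bodies that hold back proteins and RNAs in the nucleus. Host genes such as GAS5 release small nucleolar RNAs from their introns, which guide the chemical modification of ribosomal RNA, while the spliced exons are read by ribosomes and decay quickly. In breast tumours MALAT1, HOTAIR, PVT1 and H19 are known for their high expression in aggressive disease, and GAS5 for a role in growth arrest.

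The reads counted on genes lay between 15222452 and 22712638 in NS control and between 15665714 and 26949026 in BCL9 KD samples. BCL9 had 6.25, 6.24 and 5.34 FPKM in the NS control samples, given in the order of their replicate numbers here and hereafter, against 2.86, 2.78 and 2.59 FPKM in BCL9 KD, with no overlap (log2 fold change −0.99, limma adjusted p = 0.00773). The log2 change stayed between −1.06 and −0.95 with a sample left out, but the limma adjusted p was 0.0656 with the replicate block, 0.0636 without NS control replicate 2, 0.0589 without BCL9 KD replicate 2 and 0.07 without BCL9 KD replicate 3. FPKM is the number of reads on a gene per kilobase of its length, scaled to a fixed total of reads counted. Basal keratins were high in every sample, with KRT5 from 379 to 436 FPKM, and among 5 luminal markers KRT8 (242 to 333 FPKM), KRT18 (142 to 205 FPKM) and GATA3 (7.08 to 9.28 FPKM) were also expressed while PGR was listed at 0 and ESR1 was at most 0.098 FPKM. The luminal markers summed to 431 to 548 FPKM in NS control and 393 to 410 FPKM in BCL9 KD samples, and their part in the results was not tested. The summed endothelial markers ran from 1.75 to 2.34 FPKM in NS control and from 3.15 to 3.95 FPKM in BCL9 KD samples, nearly all of it PECAM1, while VWF and CDH5 were at most 0.0534 FPKM. The summed leukocyte markers were 0.294 to 0.56 and 0.778 to 1.38 FPKM, nearly all of it CD14, with PTPRC and CD3E at most 0.013 FPKM, and the part of either sum in the results was not tested.

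**Figure D1:**
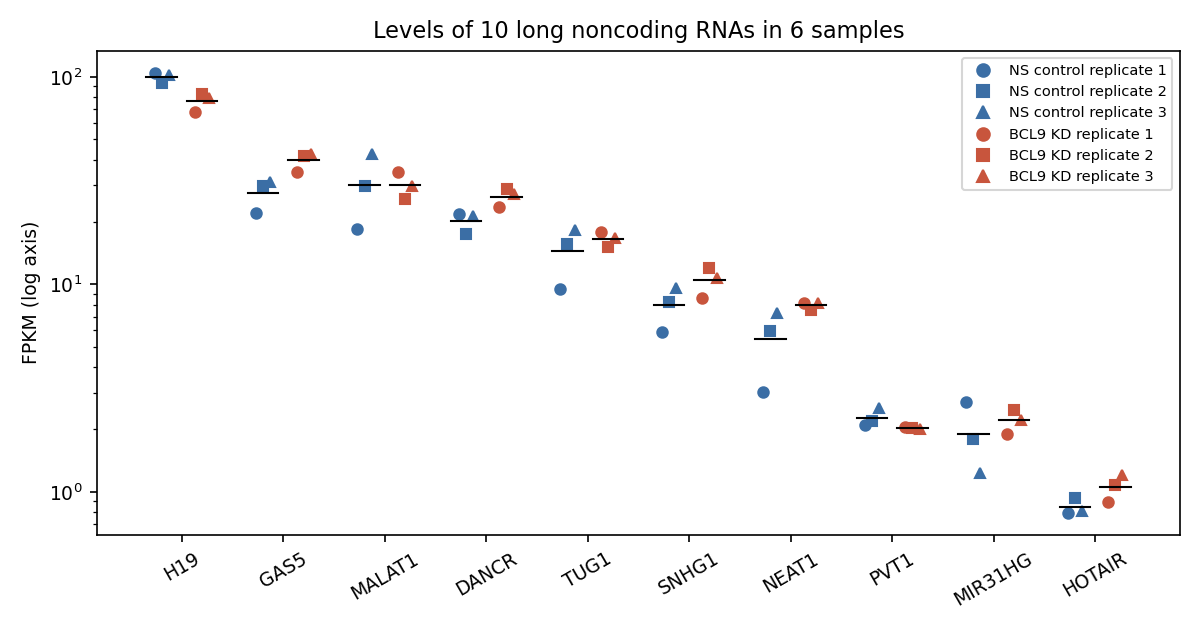
FPKM of the 10 long noncoding RNAs (log axis) in 3 NS control and 3 BCL9 KD samples, with the replicate given by the shape of the point and each group mean by a black line. H19 lies highest near 88.4 FPKM over all samples and HOTAIR lowest near 0.952, and the NS control points of MALAT1, NEAT1 and TUG1 are spread widely.

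The label "abundant" held for some of the 10 RNAs. Over all 6 samples, H19 had a mean of 88.4 FPKM, above 97.5% of the 13745 genes tested, and it was number 2 of 15159 genes of long noncoding types. GAS5 followed with 33.7 FPKM, then MALAT1 with 30.2, DANCR with 23.4 and TUG1 with 15.5 FPKM. SNHG1 had 9.20 FPKM and NEAT1 6.68 FPKM, both above the median of 4.65 FPKM over the genes tested. PVT1 with 2.16, MIR31HG with 2.06 and HOTAIR with 0.952 FPKM lay below this median, and HOTAIR stood above only 13.9% of the genes tested. H19 was above GAS5, NEAT1 above PVT1 and MIR31HG above HOTAIR without overlap of the sample values. The ranges of every other pair of neighbours in this order overlapped. Within a sample, DANCR was above TUG1, TUG1 above SNHG1 and SNHG1 above NEAT1 in 6 of 6 samples, while GAS5 was above MALAT1 and MALAT1 above DANCR in 4 of 6 and PVT1 above MIR31HG in 3 of 6. This order depends on the gene lengths used, 22767 bases for NEAT1, its whole locus, and 3756 bases for SNHG1. By reads NEAT1 stood above SNHG1, with 1562 to 4617 against 503 to 1214 reads in a sample. The 10 RNAs together took between 16577 and 27297 reads in a sample. Their share of the reads on genes ran from 0.0759% in NS control replicate 1 to 0.116% in NS control replicate 3.

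None of the 10 RNAs differed between the groups at a limma adjusted p-value under 0.05, while 5.87% of all genes tested were. At an unadjusted limma p-value under 0.05 stood 3 of them, H19, GAS5 and DANCR, that is 3 of 10, against 27.5% of all genes tested. This count was 5 without NS control replicate 1, 5 without NS control replicate 3 and 5 with voom. Of all genes, 3875 of 13862, 4756 of 13692 and 4195 of 13745 had such a p-value in these fits. The count was also 5 when samples were corrected for GC content and blocked by replicate (3633 of 13745 genes). It was 4 with the block alone (3235 of 13745) and 4 without BCL9 KD replicate 1 (3508 of 13696). Every other setting left it at 3. With voom, a weighted limma fit to the reads recovered from the FPKM, 2 were called, H19 (limma adjusted p = 0.0397) and GAS5 (limma adjusted p = 0.0448), against 10.2% of all genes. The values of the 2 groups did not overlap for 5 of the 10, against 34.2% of all genes. Of these, GAS5, DANCR and NEAT1 were above the NS control range in every BCL9 KD sample (17.8% of all genes were) and H19 and PVT1 below it (16.4% of all genes were). For such a gene the two-sided exact permutation test gives p = 0.1, the smallest value that 3 samples against 3 allow. The median log2 fold change was 0.22 over the 10 RNAs and 0.04 over all genes tested, and 8 of the 10 values (80.0%) lay above 0 against 55.4% of all genes.

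**Figure D2:**
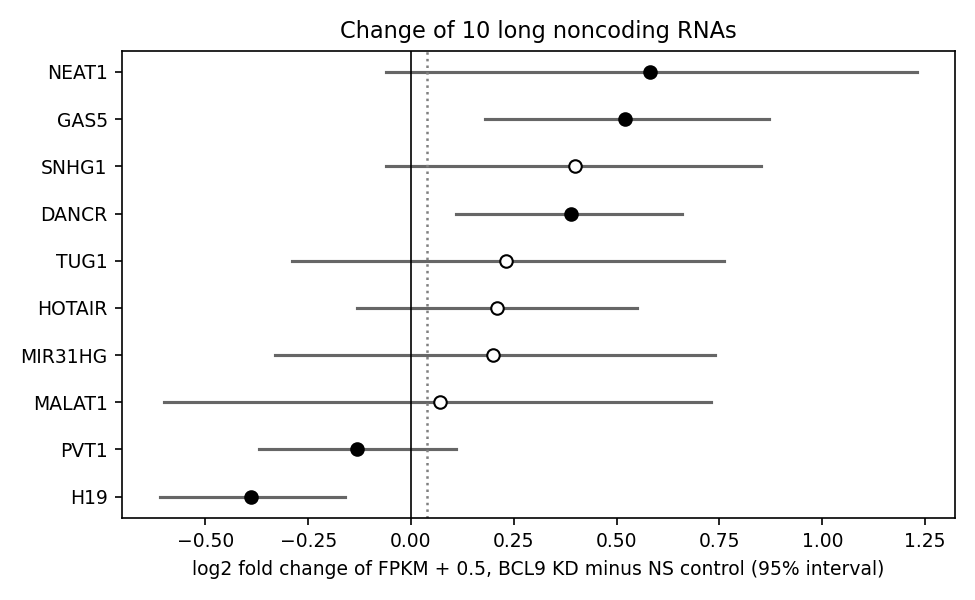
Log2 fold change of each RNA (BCL9 KD minus NS control, on log2 of FPKM + 0.5) with its 95% interval from limma. Filled points mark the 5 RNAs whose groups do not overlap, the dotted line is the median of all genes tested at 0.04, and the intervals of H19, GAS5 and DANCR leave out 0.

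MALAT1 (ENSG00000251562, chromosome 11 of GRCh38, 65497762 to 65506516, plus strand) is a nuclear RNA held in speckles. It had 18.5, 29.8 and 42.4 FPKM in NS control samples, against 34.8, 25.9 and 29.9 FPKM in BCL9 KD samples. The NS control values enclosed all 3 BCL9 KD values, and the group means were 30.2 ± 12.0 and 30.2 ± 4.50 FPKM (SD, n = 3). Its log2 fold change was 0.07 with a 95% interval from −0.60 to 0.73 (limma adjusted p = 0.895). The interval is wide enough to hold a change of either sign, so a difference was not detectable here, although each value rests on 3673 to 6101 reads. Without NS control replicate 1 the log2 fold change was −0.24, and without NS control replicate 3 it was 0.35. It was −0.04 without BCL9 KD replicate 1.

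NEAT1 (ENSG00000245532) lies on the same chromosome and strand, from 65422774 to 65445540, and its deposited length of 22767 bases covers the whole locus, so that the short and the long form cannot be told apart. Its values were 3.02, 5.97 and 7.31 FPKM in NS control and 8.10, 7.53 and 8.14 FPKM in the BCL9 KD group. All BCL9 KD values lay above all NS control values, but BCL9 KD replicate 2 exceeded NS control replicate 3 only narrowly. With means of 5.43 ± 2.19 and 7.92 ± 0.345 FPKM (SD, n = 3), the log2 fold change was 0.58 (95% interval −0.06 to 1.23, limma adjusted p = 0.219), the largest of the 10. It was 0.24 without NS control replicate 1 and 0.82 without NS control replicate 3.

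TUG1 (ENSG00000253352, chromosome 22, 30970677 to 30979395, plus strand), an RNA reported at sites of gene silencing, had the same order of samples as MALAT1 within each group. It had 9.49, 15.7 and 18.3 FPKM in NS control and 17.9, 15.2 and 16.7 FPKM in the BCL9 KD group. The groups overlapped, and the log2 fold change was 0.23 (95% interval −0.29 to 0.76, limma adjusted p = 0.516) and −0.03 without NS control replicate 1.

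The NS control replicates of these 3 RNAs were widely spread, as were those of MIR31HG, where the highest was 2.20 times the lowest and the log2 SD was 0.447. The highest NS control value was 2.30 times the lowest for MALAT1, 2.42 times for NEAT1 and 1.93 times for TUG1, and 1.35, 1.08 and 1.18 times in the BCL9 KD samples. On the log2 scale, the SD of the NS control samples was 0.591 for MALAT1, 0.601 for NEAT1 and 0.477 for TUG1, larger than that of 93.6%, 93.8% and 89.9% of all genes tested. Within the NS control group, 7 of the 10 RNAs were lowest in replicate 1, namely MALAT1, NEAT1, TUG1, GAS5, SNHG1, PVT1 and HOTAIR, against 46.9% of all genes tested. The SD was larger in NS control than in BCL9 KD for 8 of the 10, and for 68.5% of all genes tested. Across all genes, the deviation of a gene from its group mean rose by 0.147 log2 units per 10 points of GC percent in NS control replicate 1 and changed by −0.115 in NS control replicate 3. The slopes of the other 4 samples lay between −0.032 and 0.0168. The transcripts of MALAT1, NEAT1 and TUG1 have 42.0%, 44.1% and 43.1% GC, and after a correction of each sample for GC content their log2 fold changes were 0.02, 0.60 and 0.23. These are changes between the groups and not SDs within a group, and the part of GC content in the spread was not tested.

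**Figure D3:**
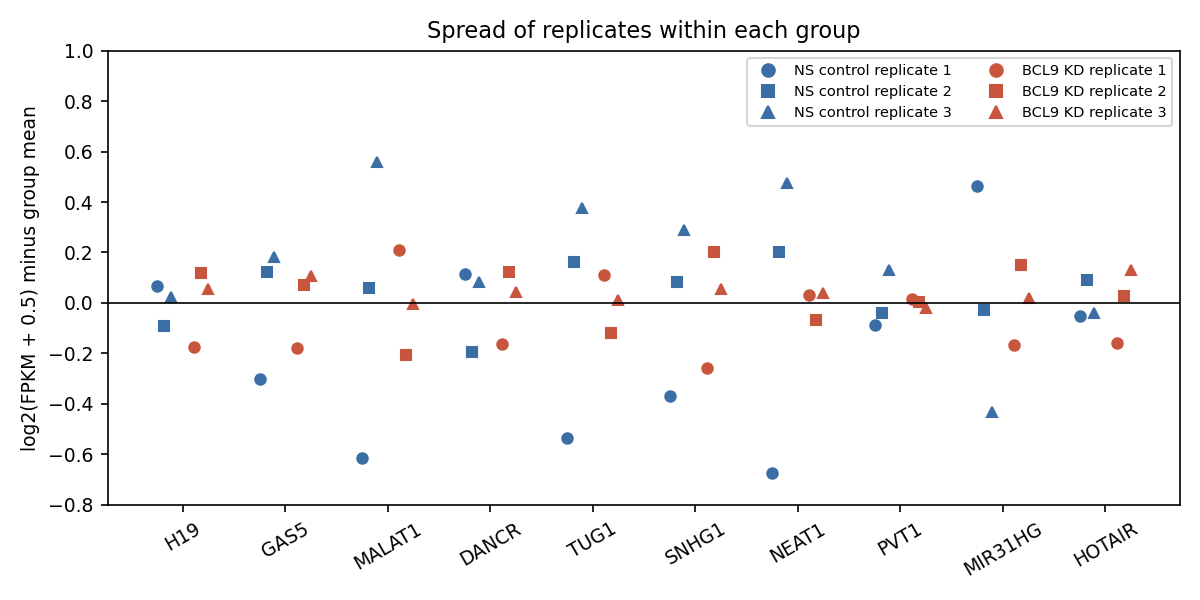
Deviation of each sample from its group mean on the log2(FPKM + 0.5) scale for the 10 RNAs, coloured by group with the replicate given by the shape of the point. NS control replicate 1 is lowest in its group for 7 RNAs, and MALAT1, NEAT1 and TUG1 have NS control SDs of 0.591, 0.601 and 0.477.

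The 3 host genes of small RNAs were each higher on average in the BCL9 KD cells. GAS5 (ENSG00000234741, chromosome 1, 173863900 to 173868882, minus strand) is named for its rise in growth-arrested cells. It had 22.1, 29.8 and 31.1 FPKM in NS control and 34.9, 41.6 and 42.6 FPKM in the BCL9 KD group. Every BCL9 KD value was above every NS control value, the means were 27.6 ± 4.88 and 39.7 ± 4.16 FPKM (SD, n = 3), and their ratio was 1.44. The log2 fold change was 0.52 (standard error 0.146, 95% interval 0.18 to 0.87, limma adjusted p = 0.0768). It stayed above 0 with each sample left out, from 0.37 to 0.62, and was 0.38 (limma adjusted p = 0.0553) after the GC correction.

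DANCR (ENSG00000226950, chromosome 4, 52712404 to 52720351, plus strand) is named for holding back differentiation and hosts the small nucleolar RNA SNORA26 and the microRNA gene MIR4449. Its values were 21.8, 17.5 and 21.3 FPKM in NS control and 23.5, 28.8 and 27.2 FPKM in the BCL9 KD group. The groups did not overlap, with means of 20.2 ± 2.33 and 26.5 ± 2.72 FPKM (SD, n = 3). The log2 fold change was 0.39 (standard error 0.114, 95% interval 0.11 to 0.66, limma adjusted p = 0.0894).

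SNHG1 (ENSG00000255717, chromosome 11, 62851988 to 62855914, minus strand), the host of a run of box C/D small nucleolar RNAs, had 5.90, 8.26 and 9.60 FPKM in NS control and 8.60, 12.0 and 10.8 FPKM in the BCL9 KD group. BCL9 KD replicate 1 lay below NS control replicate 3, so the groups overlapped. The log2 fold change was 0.40 (95% interval −0.06 to 0.85, limma adjusted p = 0.230), and 0.21 without NS control replicate 1.

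Host genes of this kind often begin with a terminal oligopyrimidine tract, a C followed by a run of C and T that ties translation to growth signals, and the first 20 bases of the RefSeq start (GRCh38.p14) are therefore shown for the 3 hosts, with the opening run of C and T in capitals. The starts of SNHG7, SNHG8 and SNHG5, other hosts whose values are given further on, and of the elongation factor EEF1A1, which has such a tract, stand beside them.
GAS5: agatgtgtttattttggagc
SNHG1: CTCatttttctactgctcgt
DANCR: gcccttgcccagagtcttcc
SNHG7: CTCTgcgtgcgccggaggct
SNHG8: Cacattcgggaagcgtcggg
SNHG5: CTTTTacgtcggccttcgcg
EEF1A1: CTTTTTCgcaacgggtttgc
Among the 3 hosts only SNHG1 opened with a C, followed by a run of 3 pyrimidines in all, and GAS5 and DANCR opened with a purine at these annotated starts. A C with a run of at least 4 pyrimidines opened 9 of 26 host genes matched in the RefSeq table, and 5.45% of all 35116 windows in it. GAS5 is known as an RNA with such a tract, and its RefSeq start and that of DANCR lie outside the limits of the gene in the deposited table, so the starts shown need not be those used in these cells. The starts shown are chr1:173869026-173869045 on the minus strand for GAS5, chr11:62855866-62855885 on the minus strand for SNHG1 and chr4:52712394-52712413 on the plus strand for DANCR.

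Promoter windows from 250 bases before to 50 after the start were searched for 7 of the 10 RNAs, leaving out NEAT1, HOTAIR and PVT1. The search was made on both strands for TTCNNNGAA, the spaced palindrome of STAT factors, and for CTTTGNT, the core letters of TCF factors, through which BCL9 acts. Of the 7, only DANCR held a match of the first, which 7.66% of all windows hold, and none held the second, which 15.4% of all windows hold. The DANCR window, chr4:52712144-52712443 on the plus strand of GRCh38.p14, is shown with the match in capitals, whose first base lies at position −219 from the start.
DANCR promoter: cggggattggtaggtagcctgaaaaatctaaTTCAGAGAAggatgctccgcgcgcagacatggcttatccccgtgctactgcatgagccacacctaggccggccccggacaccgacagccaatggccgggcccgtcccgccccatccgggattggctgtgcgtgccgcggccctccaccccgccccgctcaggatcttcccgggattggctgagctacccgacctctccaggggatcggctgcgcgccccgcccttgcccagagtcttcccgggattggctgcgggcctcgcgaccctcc
The letters are a description of the window, and binding there was not measured in these data.

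H19 (ENSG00000130600, chromosome 11, 1995163 to 2001470, minus strand) is an imprinted RNA, made from the maternal copy in normal tissue, whose first exon holds the microRNA gene MIR675. It had 105, 94.0 and 102 FPKM in NS control and 67.6, 83.0 and 79.3 FPKM in the BCL9 KD group. The highest BCL9 KD value was under the lowest NS control value, the means were 100.2 ± 5.57 and 76.6 ± 8.07 FPKM (SD, n = 3), and their ratio was 0.764. Its log2 fold change of −0.39 (standard error 0.0952, 95% interval −0.61 to −0.16, limma adjusted p = 0.0587) had the smallest p-value of the 10. H19 passed the threshold with quantile normalization (limma adjusted p = 0.0172), with voom (limma adjusted p = 0.0397) and with a filter on reads in place of FPKM (limma adjusted p = 0.0494). It was not past the threshold in any fit that left out a sample, where the log2 fold change ran from −0.45 to −0.30.

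MIR31HG (ENSG00000171889, chromosome 9, 21455642 to 21559669, minus strand), the host gene of MIR31, had 2.72, 1.79 and 1.23 FPKM in NS control and 1.90, 2.49 and 2.23 FPKM in the BCL9 KD group. These values rest on 14 to 50 reads, and the 14 reads of NS control replicate 3 have an exact 95% Poisson interval of 7.65 to 23.5 reads, which covers counting error only. The groups overlapped, with a log2 change of 0.20 (95% interval −0.33 to 0.74, limma adjusted p = 0.578) that was −0.01 without NS control replicate 3 and −0.00385 after the GC correction.

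Of the mature microRNAs inside H19, MIR31HG and DANCR, 4 are shown because their genes lie within the host genes measured here. The sequences are from RefSeq on GRCh38.p14, with the seed (bases 2 to 8) in capitals, and for MIR31 only the 5p form is shown.
miR-675-5p: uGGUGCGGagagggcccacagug
miR-675-3p: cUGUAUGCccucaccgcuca
miR-31-5p: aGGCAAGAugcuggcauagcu
miR-4449: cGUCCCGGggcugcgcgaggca
No 2 of these 4 share a seed. They lie at chr11:1996800-1996822 and chr11:1996768-1996787 on the minus strand within H19, at chr9:21512158-21512178 on the minus strand within MIR31HG and at chr4:52712720-52712741 on the plus strand within DANCR. The rows of MIR675 and MIR4449 were listed at 0 in all samples and that of MIR31 had at most 3 reads in a sample, and these rows give no level of the mature microRNAs.

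Annotated genes that overlap the 10 RNAs can share reads with them. The table holds 47 annotated genes that overlap one of the 10 RNAs, and 29 of them were listed at 0 reads in all samples. All 3 such genes within MALAT1, all 4 within NEAT1, all 6 within TUG1, all 7 within SNHG1 and all 3 within H19 were at 0. HTSeq by default gives a read that overlaps 2 genes to neither, and the counting mode and strand setting are not given in the sources used here. For GAS5 the overlapping genes did hold reads, 310 to 519 for ZBTB37 (log2 fold change 0.02, limma adjusted p = 0.953) and 21 to 32 for GAS5-AS1 (−0.12, limma adjusted p = 0.758). HOTAIR overlaps HOXC11 on the other strand (0.07, limma adjusted p = 0.740) and MIR31HG holds IFNE on its own strand (0.23, limma adjusted p = 0.551). Without strand, reads from such pairs cannot be told apart.

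HOTAIR (ENSG00000228630, chromosome 12, 53962308 to 53974956, minus strand), transcribed from the HOXC cluster and known for binding the Polycomb silencing complex, was the lowest of the 10. Its values were 0.795, 0.931 and 0.808 FPKM in NS control and 0.891, 1.08 and 1.2 FPKM in the BCL9 KD group, on 32 to 76 reads. BCL9 KD replicate 1 lay below NS control replicate 2, and the log2 fold change was 0.21 (95% interval −0.13 to 0.55, limma adjusted p = 0.367), and 0.13 with quantile normalization.

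PVT1 (ENSG00000249859, chromosome 8, 127794533 to 128101253, plus strand), the neighbour of MYC, had 2.11, 2.20 and 2.54 FPKM in NS control and 2.06, 2.04 and 2.00 FPKM in the BCL9 KD group. The groups did not overlap, and the log2 SD of the BCL9 KD samples was larger than that of only 3.64% of the genes tested. The means were 2.28 ± 0.224 and 2.03 ± 0.0312 FPKM (SD, n = 3), with a log2 change of −0.13 (95% interval −0.37 to 0.11, limma adjusted p = 0.418). It was −0.07 without NS control replicate 3, −0.06 after the GC correction and −0.21 with quantile normalization.

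**Figure D4:**
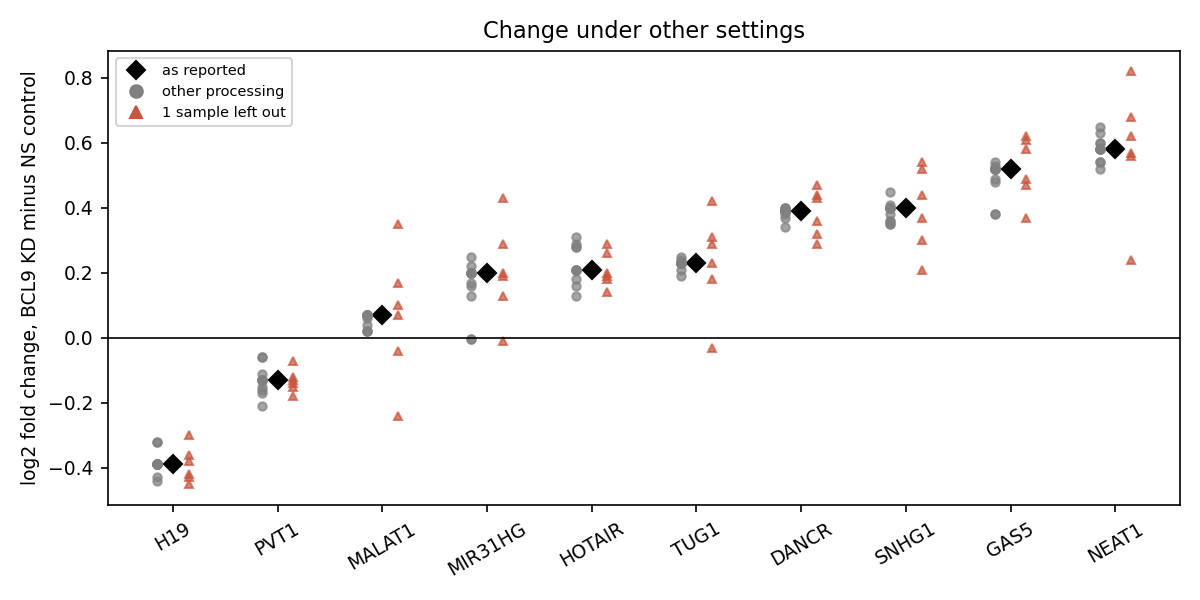
Log2 fold change of each RNA as reported (diamonds), under other processing (grey circles) and with 1 sample left out (red triangles). Points of MALAT1 run from −0.24 to 0.35 and those of TUG1 and MIR31HG also cross 0, while GAS5 stays between 0.37 and 0.62 and H19 between −0.45 and −0.30.

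The nearest protein-coding genes on each side of the 10 RNAs were not called by the tests used. There are 18 different neighbours, 11 of which were tested, and 0 passed an adjusted p-value under 0.05 with limma, 0 had an unadjusted p-value under 0.05 and 0 were called by voom, against 5.87%, 27.5% and 10.2% of all genes. MYC, a transcription factor that drives growth, 53098 bases from PVT1, had 54.8, 52.7 and 51.8 FPKM in NS control and 51.5, 57.6 and 55.5 FPKM in the BCL9 KD group (log2 fold change 0.05, 95% interval −0.12 to 0.21, limma adjusted p = 0.694). FRMD8, which lies 9248 bases from NEAT1, had a log2 change of −0.07 (limma adjusted p = 0.596). SLC3A2, a subunit of amino acid transporters that begins 187 bases from SNHG1, had a log2 change of 0.09 (limma adjusted p = 0.495). IGF2, the imprinted growth factor gene beyond H19, was listed at 0 in all samples while H19 was among the highest RNAs. Genes that overlap IGF2 were not looked up, and reads shared with such a gene may not be counted, so this 0 need not mean absent RNA. MTAP, the neighbour of MIR31HG, was at most 0.0131 FPKM, and HOXC12 beside HOTAIR was listed at 0. The other untested neighbours were also under 0.5 FPKM in every sample.

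Related genes were read from the same fit, on lists chosen for their link to the 10 RNAs. Of the long noncoding hosts of small nucleolar RNAs other than the 3 above, 17 were found under the names used and tested, 2 rose, 0 fell and 15 did not pass the test, a share of 11.8% against 5.87% of all genes. SNHG8 had 16.7, 15.2 and 18.7 FPKM in NS control and 27.2, 40.7 and 42.0 FPKM in the BCL9 KD group, a log2 change of 1.08 (standard error 0.174, limma adjusted p = 0.0273). SNHG7 had 4.72, 4.61 and 4.82 and then 6.26, 7.30 and 7.52 FPKM, a log2 change of 0.53 (standard error 0.0897, limma adjusted p = 0.0301). In both genes the groups stood well apart, and BCL9 KD replicate 1 was the lowest of its group. The most highly expressed hosts did not pass, LRRC75A-AS1 with a log2 change of 0.24 (limma adjusted p = 0.223) and SNHG5 with 0.95 (limma adjusted p = 0.0594). The median over the 17 was 0.31 and 13 lay above 0 (76.5%), against 0.04 and 55.4% of all genes. No host passed when NS control replicate 2, BCL9 KD replicate 2 or BCL9 KD replicate 3 was left out, where 12, 13 and 5 of all genes passed. Without BCL9 KD replicate 1, 6 hosts passed, against 748 of all 13696 genes.

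Of other cancer-related long noncoding RNAs, 20 were found under the names used and tested, with 2 higher, 1 lower and 17 not past the test, a share of 15% against 5.87% of all genes. CRNDE, an RNA named for colorectal neoplasia, had 6.44, 7.64 and 8.93 FPKM in NS control and 11.4, 11.7 and 11.9 FPKM in the BCL9 KD group, a log2 change of 0.58 (limma adjusted p = 0.0405). BLACAT1 rose by 0.35 on the log2 scale (limma adjusted p = 0.0466) and MIR4435-2HG fell by 0.39 (limma adjusted p = 0.0466). The most highly expressed of the list, LINC00657 with 0.08 and MIR205HG with 0.35, had limma adjusted p = 0.739 and 0.0527. The list gave 0 calls without BCL9 KD replicate 1, 2 or 3 or without NS control replicate 2, where 748, 13, 5 and 12 of all genes passed. Across all 1317 tested genes of long noncoding types, 23 were higher and 11 lower, a share of 2.58% against 6.56% of protein-coding genes.

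Paraspeckle proteins bind NEAT1, and of 20 tested, 1 rose and 1 fell, a share of 10% against 5.87% of all genes. CIRBP, the cold-inducible RNA-binding protein, rose by 0.61 on the log2 scale (limma adjusted p = 0.0387) and RBM14, a protein needed to build paraspeckles, fell from 26.0 ± 3.16 to 16.2 ± 0.638 FPKM (SD, n = 3), a log2 change of −0.66 (limma adjusted p = 0.0222). The most highly expressed members were HNRNPA1 with 0.24 (limma adjusted p = 0.0730) and HNRNPK with 0.13 (limma adjusted p = 0.311), and the median over the list was 0.05. Both calls were absent when NS control replicate 2, BCL9 KD replicate 2 or BCL9 KD replicate 3 was left out, where 12, 13 and 5 of all genes passed. Without NS control replicate 1, 1 call was made, against 690 of all 13862 genes. Of 22 nuclear speckle proteins, the partners of MALAT1, SON, a scaffold of the speckle, fell from 36.9 ± 2.17 to 28.6 ± 1.94 FPKM (SD, n = 3; log2 fold change −0.36, limma adjusted p = 0.0472) and 21 did not pass, a share of 4.55% against the same 5.87%. SRSF3 with 0.21 and U2AF2 with −0.04 were the most highly expressed, with limma adjusted p = 0.131 and 0.760. The speckle list had 0 calls without NS control replicate 1, NS control replicate 2, BCL9 KD replicate 2 or BCL9 KD replicate 3. In these fits 690, 12, 13 and 5 of all genes passed. It had 6 calls without NS control replicate 3, where 1729 of all 13692 genes passed.

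Some spliced host RNAs, GAS5 among them, are cleared by nonsense-mediated decay, and none of 17 factors of this pathway passed with limma, while 9 had an unadjusted p-value under 0.05 and voom called 1, against 5.87%, 27.5% and 10.2% of all genes. Their log2 fold changes ran from −0.35 to 0.60, with SMG5 at −0.24 (limma adjusted p = 0.111) and EIF4A3 at −0.04 (limma adjusted p = 0.820) the most highly expressed. Without NS control replicate 3, 4 of the 17 passed, against 1729 of all 13692 genes tested in that fit. The 9 with an unadjusted p-value under 0.05 became 5 without NS control replicate 1 (3875 of all 13862 genes) and 4 after the GC correction (4215 of 13745). They became 0 without NS control replicate 2 (2609 of 13750) or BCL9 KD replicate 2 (2410 of 13783), and 2 without BCL9 KD replicate 3 (2330 of 13764). Of 16 tested genes listed as known carriers of a terminal oligopyrimidine tract, most of them translation factors, 0 passed with limma, 9 had an unadjusted p-value under 0.05 and voom called 3, against the same 3 shares of all genes. Their median was 0.22, and EEF1A1 with 0.06 and EEF2 with −0.26 had limma adjusted p = 0.706 and 0.240. This list had 2 calls without NS control replicate 3 and 3 without BCL9 KD replicate 1, where 1729 of 13692 and 748 of 13696 genes passed.

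**Figure D5:**
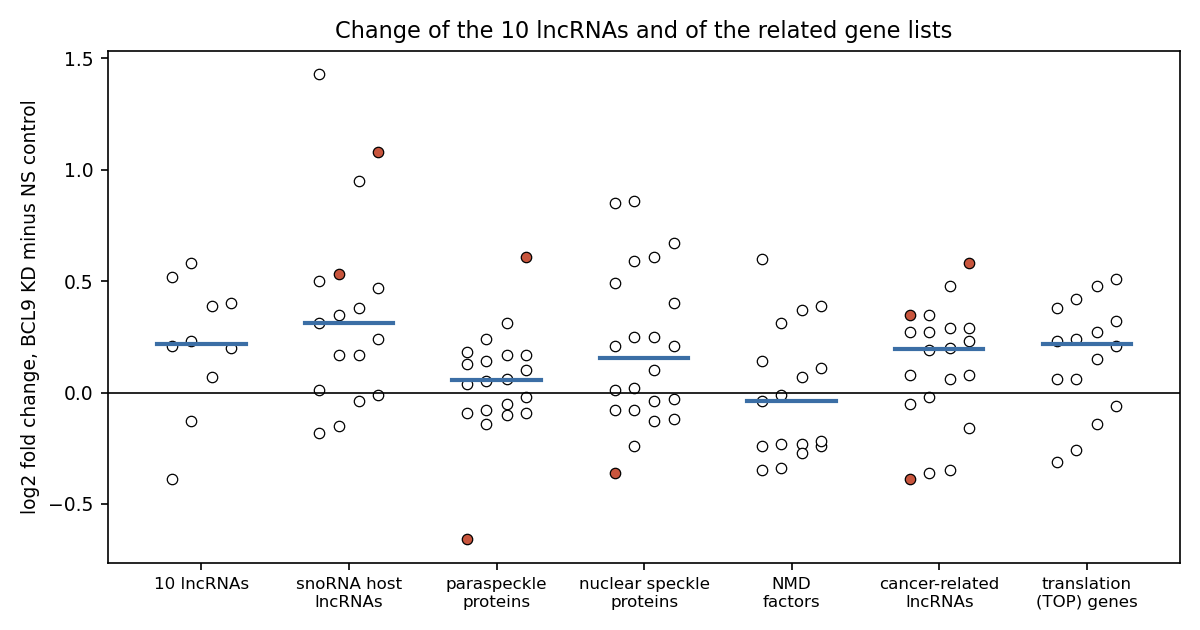
Log2 fold change (BCL9 KD minus NS control) of each tested gene of the 10 RNAs and of 6 related lists, with a blue line at each median and filled points for genes past a limma adjusted p-value of 0.05. The median is 0.22 for the 10 RNAs, 0.31 for the other snoRNA hosts, 0.05 for paraspeckle proteins and 0.16 for nuclear speckle proteins, and no point of the 10 RNAs is filled.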

How the data were processed

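RNA of 3 NS control and 3 BCL9 KD samples of DCIS.COM cells, 1 flask each, was sequenced by the study from NEB Next Ultra libraries. The authors deposited FPKM per gene. The submitters' processing notes name CASAVA, STAR, HTSeq 0.6.1 and hg38, and the annotation release, the strand setting and the counting mode are not given in the sources used here. The methods of the study speak of 2 replicates per condition and the labels of 3, and the labels were followed. Samples were grouped by their labels.

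FPKM multiplied by gene length gave whole reads for all genes within a tolerance of 0.1, and depth was summed from these. The test was limma 3.58.1 (R 4.3.3) with a mean-variance trend on log2(FPKM + 0.5), two-sided, over the 13745 genes with a mean of at least 0.5 FPKM, with Benjamini-Hochberg adjustment over all of them and a threshold of 0.05. On this scale the changes of low genes are understated. All 10 RNAs passed the filter, which was set on the mean over all samples. An exact permutation test over samples was run for single genes as well. The study's methods name DESeq2, which was not run here, and voom on the recovered reads was the test on reads. The p-values measure the spread between flasks of 1 transduced line per group.

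The rule for naming genes covered the 10 RNAs, BCL9, the nearest protein-coding gene on each side, genes that overlap a member, and per list up to 4 called genes with the largest change and the 2 most highly expressed. Only some of the neighbouring and overlapping genes are named in the text, chosen after their values were seen, and the others are given by counts. The result for 1 of the neighbouring genes tested is not reported here. MIR31HG and other low values also carry counting error. The members and lists were chosen with earlier results of these data known. Alternatives were other added values, filters, scalings, no trend, voom, a replicate block and each sample left out. A correction for GC content (loess, span 0.3, transcript GC known for 98.8% of genes tested), alone and with the block, and a filter of 10 reads were chosen after seeing the data. The scripts were checked on simulated data. Sequences came from RefSeq tables on GRCh38.p14, and gene coordinates from the deposited table.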

Additional observations from a re-analysis of the deposited data

How the results depend on the processing

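Among the alternative values for the 10 RNAs, 169 kept their direction and their side of the threshold, 4 moved past it and 6 turned their sign. The sign turned for MALAT1 without NS control replicate 1 (−0.24) and without BCL9 KD replicate 1 (−0.04), for TUG1 without NS control replicate 1 (−0.03) and for MIR31HG without NS control replicate 3 (−0.01), with the GC correction (−0.00385) and with the GC correction and the block (−0.00385). With a sample left out, the values ran from −0.24 to 0.35 for MALAT1, from −0.03 to 0.42 for TUG1 and from −0.01 to 0.43 for MIR31HG. The number of the 10 RNAs called was 1 with quantile normalization (H19), 2 with voom (H19 and GAS5), 1 with a filter of 10 reads (H19) and 0 in each fit that left out a sample. The limma adjusted p ran from 0.0448 to 0.255 for GAS5 and from 0.0172 to 0.199 for H19 over all alternatives. BCL9 kept its direction throughout, and its limma adjusted p was 0.0656 with the replicate block and at most 0.07 with a sample left out.

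Of all genes tested, 807 passed as reported. The count was 142 with no filter, 536 with median-of-ratios scaling, 332 with no trend, 1403 with voom, 1687 with the GC correction, and between 5 and 1729 with a sample left out, where NS control replicate 3 gave the highest count. Over all genes tested, same-numbered samples did not deviate together (correlations of −0.147, −0.0884 and −0.00287). Whether they were prepared together was not tested and cannot be told from these values. With the replicate block 0 genes passed with limma while 3235 had an unadjusted p-value under 0.05, and with the GC correction and the block 171 passed. The block left 0 calls among snoRNA hosts, paraspeckle, nuclear speckle and cancer-related lists, and with the GC correction and the block these lists had 2, 2, 1 and 0 calls.

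For other snoRNA hosts, 2 as reported became 0 with no filter, 4 with quantile normalization, 5 with voom, 4 with the GC correction, 4 with a filter of 10 reads and between 0 and 6 with a sample left out. Paraspeckle calls went from 2 to 0 with no filter, 1 with no trend and between 0 and 2 with a sample left out. Nuclear speckle calls went from 1 to 0 with no filter or no trend, 2 with voom, 4 with the GC correction, 2 with a filter of 10 reads and between 0 and 6 with a sample left out. Decay factors had 1 call with voom and between 0 and 4 with a sample left out. Cancer-related RNAs had 3 calls as reported, 0 with no filter or no trend, 5 with voom and between 0 and 3 with a sample left out. Translation genes had 1 call with a filter of 1 FPKM, 3 with quantile normalization, 3 with voom, 2 with the GC correction, 1 with a filter of 10 reads and between 0 and 3 with a sample left out. Leaving out a sample leaves fewer samples, and the cause of the other shifts was not tested. MIR31HG rests on 14 to 50 reads and HOTAIR on 32 to 76, the fewest of the 10.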
